A study of Mus musculus with 3 samples.

Results

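The primitive endoderm is the epithelium that separates from the epiblast in the inner cell mass of the blastocyst and later lines the yolk sac. Its programme is carried by GATA factors (Gata6, Gata4), SoxF factors (Sox17, Sox7) and the forkhead factor Foxa2, and its cells are recognised by the receptor Pdgfra and the endocytic adaptor Dab2. Mouse embryonic stem cells stand for the epiblast, where Nanog acts against this programme and FGF-ERK signalling favours it. Accessible chromatin at the loci of these 7 genes was compared between 3 ATAC-seq peak lists. The loci were chosen by gene name and position. Every peak with a midpoint inside a gene body or within 50 kb of it was a member, on the mouse build GRCm38. This gave 132 peaks, which merged into 69 of the 130664 regions covered by any of the 3 lists.

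All 3 libraries came from CGR8-derived mouse embryonic stem cells, 1 library per line. SES4.1 carried a doxycycline-inducible Halo-Sox2 and was induced with 300 ng/mL for 20 h. SES5.1 carried an inducible Halo-Sox2a, which the labels name without describing, and was induced with 70 ng/mL for 20 h. SES11 was the control and had no inducible transgene, and its labels give no doxycycline dose. Cells of both transgenic lines were stained with 50 nM of a Halo ligand and sorted through a single intensity gate, while staining and sorting of the control are not described. All lines were grown in serum with LIF, the GSK3 inhibitor CHIR99021 (3 µM) and the MEK inhibitor PD184352 (0.8 µM), so a MEK inhibitor, which acts upstream of ERK, was present in every group. The labels do not say whether a line is 1 clone. Line, dose, sorting and library therefore cannot be told apart, and no comparison below has a replicate error or a p-value.

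In all, 88898 peaks were listed for Halo-Sox2, 83995 for Halo-Sox2a, and 72638 in control cells. The depth of the libraries is unknown, so absence of a peak can also mean a signal slightly too weak to be called. The authors' score per peak was used only to rank peaks within a list. The percentile of a peak is 100 times the number of peaks ranked after it divided by the size of its list, with tied scores sharing the best rank. Halo-Sox2 and the control alone shared few regions, 1.90% of all, against 10.3% for Halo-Sox2a and the control.

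The cell type was checked at gene starts, taken as the RefSeq start sites in the promoter table or, for genes without an entry there, as either end of the gene. A peak within 1 kb was present at 7 of 8 embryonic stem cell marker genes for Halo-Sox2, and at 8 of 8 in both other lists. Nanog was the gene without one in the Halo-Sox2 list. The trophoblast, neural and mesendoderm marker lists, of 6 genes each, had such a peak at all 6 genes in all 3 lists. An accessible start thus did not separate the markers of the labelled cell type from those of other types.

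Members at gene starts were as follows. Of the 7 genes, 5 had a peak within 1 kb with Halo-Sox2, 6 with Halo-Sox2a and 5 in control cells, where 65.3%, 66.2% and 65.8% of 21887 protein-coding genes had one. The measures are unlike, because 3 of the 7 members but 17492 of the 21887 genes had start sites in the promoter table. The others were judged at either gene end. Gata4 had none in any list at either outer end of the gene. Its start sites were not in the promoter table, so a start inside the gene body was not examined. Regions inside Gata4 did hold peaks of all 3 lists, as described below. Pdgfra had a peak within 1 kb of its start in the Halo-Sox2a list only. RefSeq promoter entries (GRCm38.p6) were found for 3 of the 7 genes, Dab2, Foxa2 and Pdgfra. The 250 bases before 5 of their start sites are printed 5′ to 3′ on the gene's strand. They show a sequence covered at least in part and an uncovered one at Dab2 and at Foxa2, and the one listed start of Pdgfra. A further Foxa2 start, at 148046969, had its 250 bases covered in no list and is not printed. Capitals mark matches to a searched motif, and a sequence without capitals held no match.
Dab2, start at chr15:6299789 (plus strand, chr15:6299539-6299788): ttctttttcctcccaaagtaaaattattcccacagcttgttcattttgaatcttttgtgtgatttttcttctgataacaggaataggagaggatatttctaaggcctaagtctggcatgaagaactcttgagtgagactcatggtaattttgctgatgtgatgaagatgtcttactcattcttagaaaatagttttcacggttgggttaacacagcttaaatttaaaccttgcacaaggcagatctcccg
Dab2, start at chr15:6386748 (plus strand, chr15:6386498-6386747): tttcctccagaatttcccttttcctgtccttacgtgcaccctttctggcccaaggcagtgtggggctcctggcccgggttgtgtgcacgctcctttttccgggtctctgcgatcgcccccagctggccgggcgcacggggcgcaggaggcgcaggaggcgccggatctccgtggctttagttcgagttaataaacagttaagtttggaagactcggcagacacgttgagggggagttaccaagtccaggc
Foxa2, start at chr2:148045948 (minus strand, chr2:148045949-148046198): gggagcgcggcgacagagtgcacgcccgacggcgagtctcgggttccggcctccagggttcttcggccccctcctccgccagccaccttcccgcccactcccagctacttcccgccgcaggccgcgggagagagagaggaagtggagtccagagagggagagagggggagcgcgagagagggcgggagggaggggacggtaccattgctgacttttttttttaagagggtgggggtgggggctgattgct
Foxa2, start at chr2:148045464 (minus strand, chr2:148045465-148045714): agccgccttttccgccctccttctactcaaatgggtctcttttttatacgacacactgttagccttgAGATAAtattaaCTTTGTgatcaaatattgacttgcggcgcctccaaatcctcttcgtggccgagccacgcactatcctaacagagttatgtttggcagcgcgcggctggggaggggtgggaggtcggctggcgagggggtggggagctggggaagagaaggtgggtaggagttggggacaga
Pdgfra, start at chr5:75152251 (plus strand, chr5:75152001-75152250): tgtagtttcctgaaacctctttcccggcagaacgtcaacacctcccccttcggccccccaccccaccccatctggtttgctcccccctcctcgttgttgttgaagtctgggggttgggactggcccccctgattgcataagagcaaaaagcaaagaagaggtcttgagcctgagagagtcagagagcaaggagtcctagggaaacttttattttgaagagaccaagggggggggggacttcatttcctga

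The Dab2 sequence at the lower start had a GC content of 36.8%, and no list had a peak within 23213 bp of that start. The sequence at the inner Dab2 start had a GC content of 60.0%, and peaks of all 3 lists covered its 250 bases whole. At Foxa2, the sequence before the start at 148045948 was covered over 135 bases by Halo-Sox2, 250 by Halo-Sox2a and 166 by the control. The start itself lay in a Halo-Sox2a peak, 116 bp from the nearest Halo-Sox2 peak and 85 bp from the nearest control peak. The other printed Foxa2 sequence was covered in no list, with peaks 600, 330 and 569 bp from its start in the same order. It held the motif matches, namely AGATAA, read by GATA factors, from 183 to 178 bases before the start and CTTTGT, a SOX core, from 171 to 166 bases before it. The Pdgfra sequence was covered in no list, and the nearest peak was 3123 bp from the start with Halo-Sox2, 950 bp with Halo-Sox2a and 1247 bp in control cells.

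The motifs were searched on both strands, and no matches overlapped. Of 32817 promoters cut to the same length, 10.7% held CATTGT (a SOX core), 16.5% CTTTGT, 4.13% ATGCAAA (an octamer core), 9.99% AGATAA and 3.16% TGTTTAC (a forkhead core). A match is a run of letters and not a measured site.

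**Figure D1:**
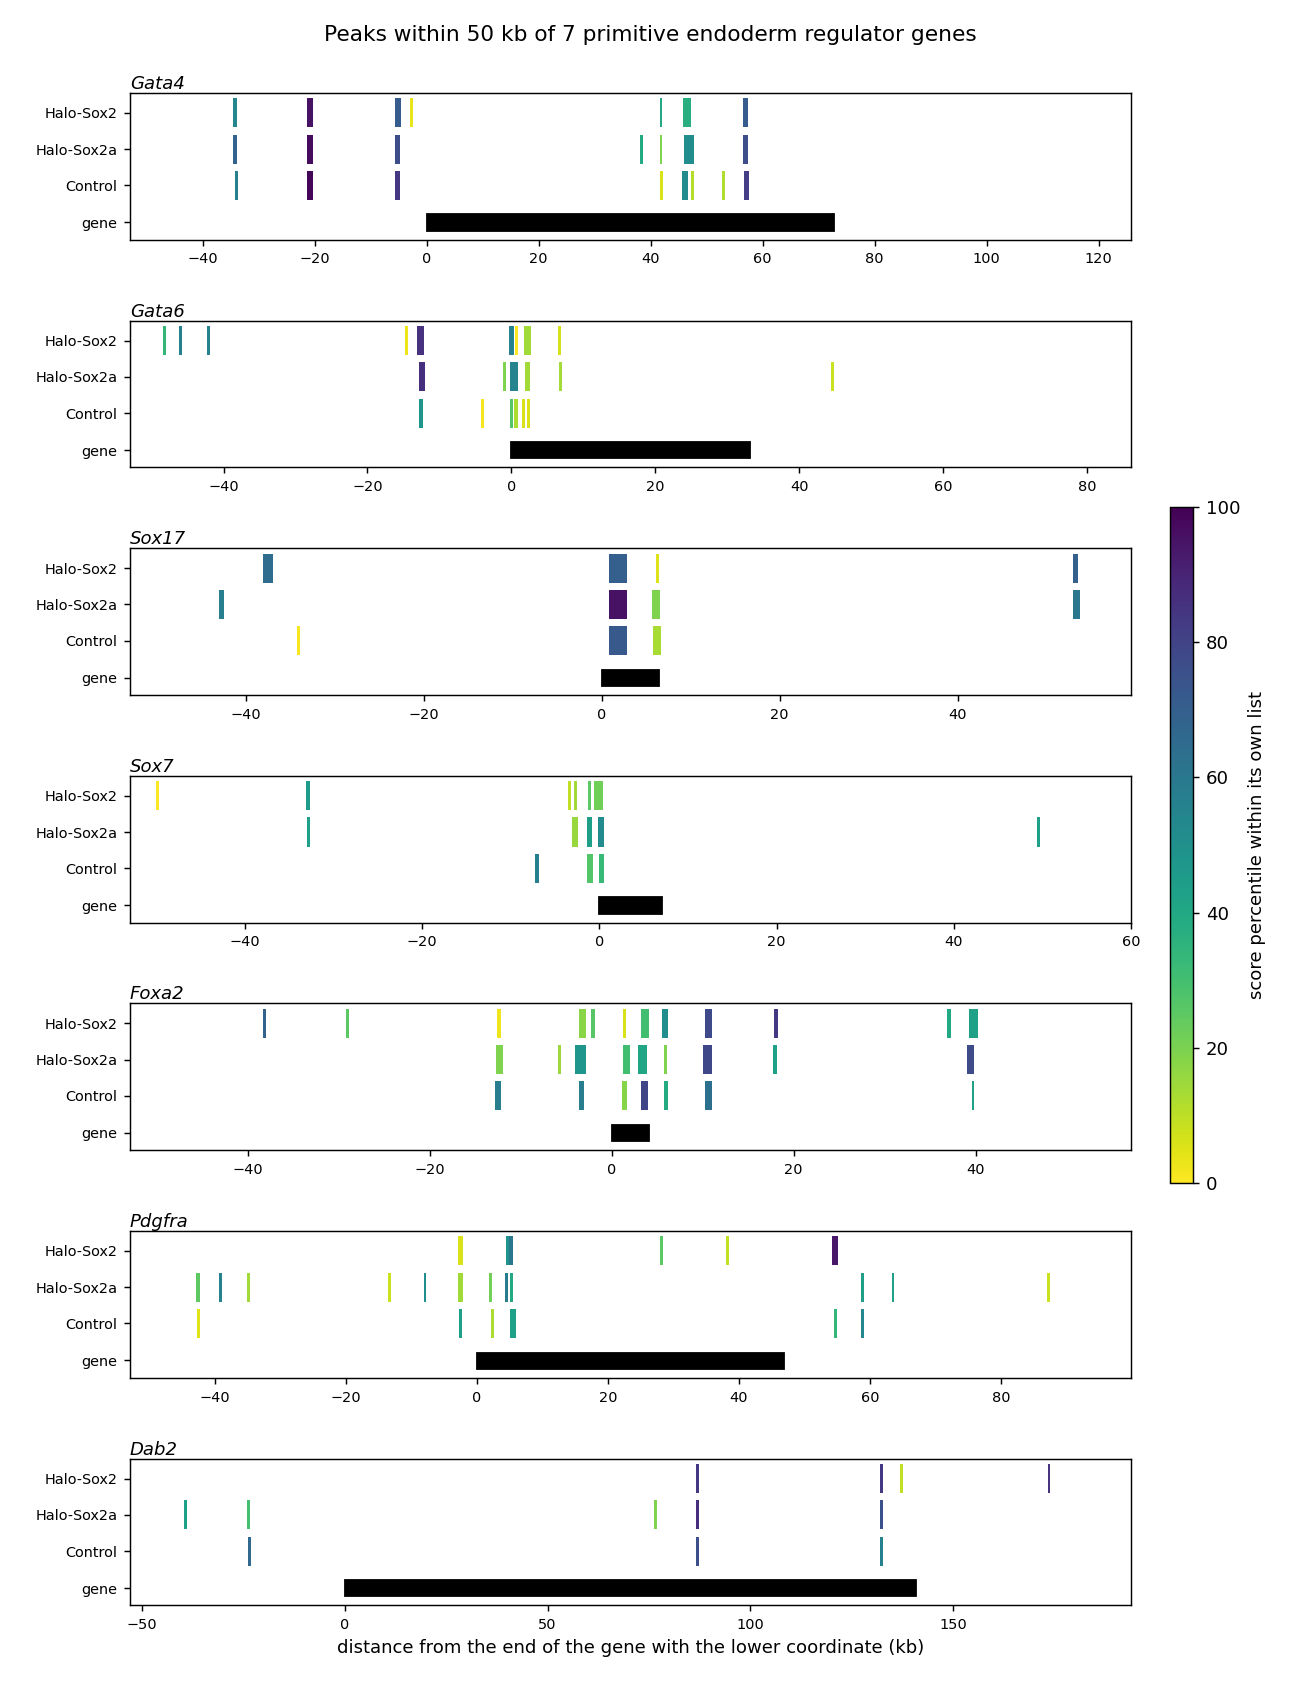
Peaks of each of the 3 libraries (Halo-Sox2, Halo-Sox2a, control) at the 7 loci, with distance from the lower-coordinate end of each gene in kb on the horizontal axis and the gene body in black. Colour gives the score percentile of a peak within its own list, the narrowest peaks are drawn at a fixed minimum width, and the Gata6 row shows a darker peak near -12 kb in both Sox2 lists than in the control.

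Across the loci, the Halo-Sox2 and Halo-Sox2a lists held 48 member peaks each and the control list 36. Members mostly ranked in the lower part of their lists. The median percentile was 39.8 for Halo-Sox2 (lowest 0.0191, highest 95.4), 43.5 for Halo-Sox2a (8.13 to 97.3) and 43.0 for the control (1.07 to 98.5). Percentile 75 was reached by 8 Halo-Sox2 peaks (16.7%), 9 Halo-Sox2a peaks (18.8%) and 5 control peaks (13.9%), against 25.1%, 25.0% and 25.2% of all peaks. Summed peak width at the loci, not scaled to list size, was 28617 bp (Halo-Sox2), 29416 bp (Halo-Sox2a) and 21011 bp (control).

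By number of regions the loci ran from Pdgfra (15), Foxa2 (13) and Gata6 (11) to Gata4 (9), Sox7 (8), Dab2 (7) and Sox17 (6). Windows differ in length, and per 100 kb of window Foxa2 held the most peaks of the 7 loci in every list, with 11.5 (Halo-Sox2), 8.65 (Halo-Sox2a) and 6.72 (control). Dab2, whose gene body is 140928 bp long, held the fewest of the 7, with 1.66, 2.08 and 1.25. The medians over protein-coding genes were 5.23, 5.37 and 4.44, with upper quartiles of 7.80, 8.27 and 7.01 and lower quartiles of 2.81, 2.62 and 2.23. Foxa2 lay above the upper quartile in both Sox2 lists, and Dab2 lay below the lower quartile in all 3 lists.

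Presence against the control was compared first. Of the 48 Halo-Sox2 member peaks, 22 (45.8%, with a 95% interval by Wilson's method of 32.6 to 59.7%) had no control counterpart, meaning an overlap of at least 1 bp, where 49.3% of all Halo-Sox2 peaks had none. Of the 48 Halo-Sox2a member peaks, 20 (41.7%, 28.8 to 55.7%) had none, against 33.4% of all. Both background shares lie inside the members' counting intervals. In the other direction, 8 of 36 control peaks (22.2%, 11.7 to 38.1%) had no Halo-Sox2 counterpart, against 37.5% of all, and 6 (16.7%, 7.87 to 31.9%) had no Halo-Sox2a counterpart, against 22.0%. Intervals cover counting error only, and peaks at a locus are not independent.

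Between the Sox2 proteins, 17 Halo-Sox2 member peaks (35.4%, 23.4 to 49.6%) had no Halo-Sox2a peak, against 38.7% of all, and 18 Halo-Sox2a member peaks (37.5%, 25.2 to 51.6%) had no Halo-Sox2 peak, against 35.4%. The loci were uneven here. Pdgfra gave 9 of the 18 Halo-Sox2a peaks, and without that locus the share was 25.0% (9 of 36). Gata6 and Foxa2 gave 4 each of the 17 Halo-Sox2 peaks.

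By class, 24 of the 69 regions (34.8%, 24.6 to 46.6%) were held by all 3 lists, against 32.1% of all regions. Halo-Sox2 alone held 16 (23.2%, 14.8 to 34.4%), against 24.3%. Halo-Sox2a alone held 14 (20.3%, 12.5 to 31.2%), against 12.2%, and 6 of these lay at Pdgfra. Both Sox2 proteins without the control held 6 (8.70%, 4.05 to 17.7%), against 8.95%. Control alone held 4 (5.80%, 2.28 to 14.0%), against 10.2%. Halo-Sox2a and the control shared 4 (5.80%), against 10.3%, and Halo-Sox2 and the control shared 1 (1.45%), against 1.90%. Among the 7 classes, the one of Halo-Sox2a alone had a background value outside its interval, just under the lower bound, and the 6 loci other than Pdgfra held 8 of its regions.

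**Figure D2:**
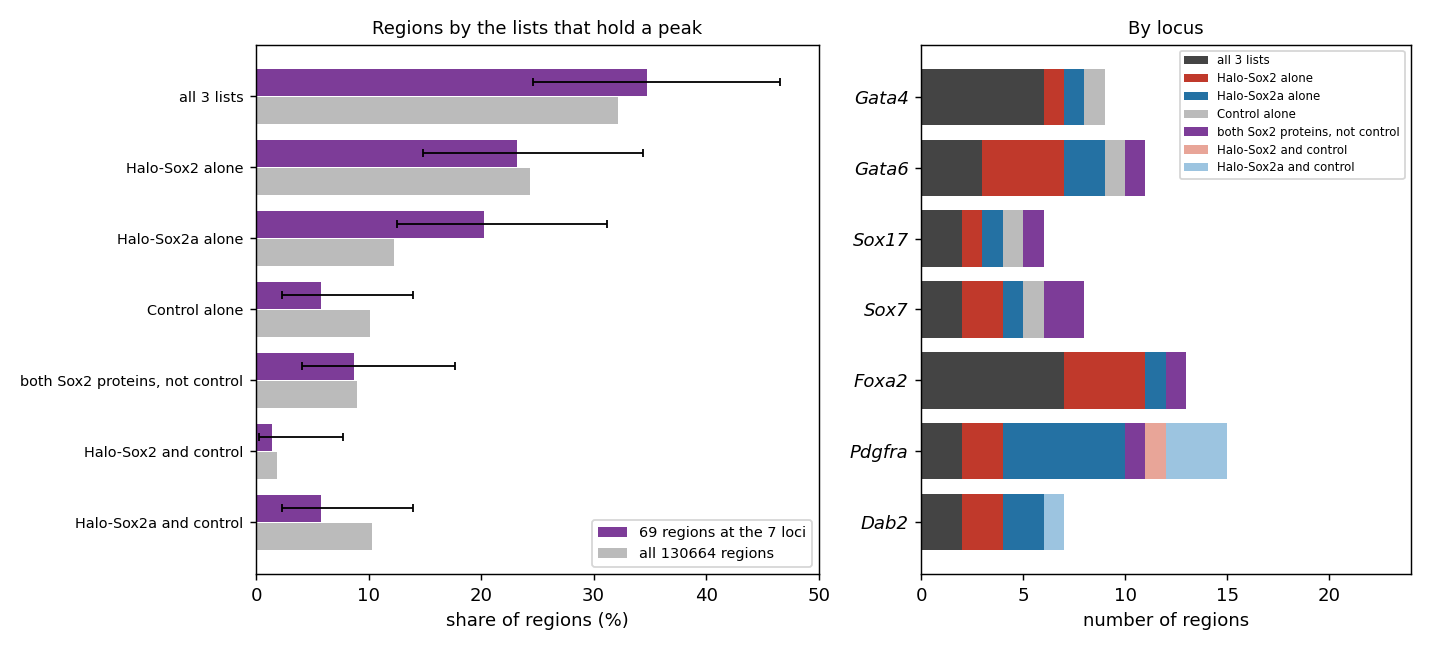
Left, share of regions (%) by the lists that hold a peak, for the 69 regions at the 7 loci with 95% Wilson intervals and for all 130664 regions; right, number of regions by class at each locus. The purple and grey bars lie close together except for Halo-Sox2a alone (20.3% against 12.2%), control alone (5.80% against 10.2%) and the Halo-Sox2a and control pair (5.80% against 10.3%).

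Position was described by class beside pairs of any protein-coding gene and a region in its window, without a test. Of the 24 regions shared by every list, 13 (54.2%) overlapped the member gene, against 30.5% of such pairs, and 3 (12.5%) lay more than 20 kb from it, against 40.1%. Of the 16 regions of Halo-Sox2 alone, 3 (18.8%) overlapped the gene, against 37.2%, and 9 (56.2%) lay beyond 20 kb, against 37.6%. Of the 14 regions of Halo-Sox2a alone, 2 (14.3%) overlapped the gene, against 29.1%, and 6 (42.9%) lay beyond 20 kb, against 41.5%. Gene lengths differ between the loci and the other genes. Median widths were 1009 bp for regions of all 3 lists, 342 bp for Halo-Sox2 alone and 260 bp for Halo-Sox2a alone, in the same order as the 843, 377 and 293 bp over all regions of those classes.

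Gata6, the GATA factor that acts first in the primitive endoderm, lies on chromosome 18 (11052510 to 11085636) and had 11 regions. The region 12064 bp from the lower-coordinate end of the gene (chr18:11039453-11040446), outside any annotated gene, was at percentile 85.5 with Halo-Sox2, 86.1 with Halo-Sox2a and 47.8 in control cells. Both Sox2 lists ranked it high and the control near its middle. It was the highest region of the locus in all 3 lists. The region over the Gata6 end and the neighbouring non-coding gene Gata6os (chr18:11052139-11053388) was at percentile 56.1, 54.8 and 26.9 in the same order, so it too ranked lower in the control. Another region of all 3 lists, inside the gene (chr18:11054024-11055215), was low throughout, at 13.8, 14.0 and 6.10. With lists cut to equal size it had no Halo-Sox2 peak left, and its difference in Halo-Sox2a from the control was -5.55 points.

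The other Gata6 regions were scattered. Halo-Sox2 alone held 4, of which 3 formed a group between 41983 and 47965 bp from the gene, in or near the non-coding gene 9130001E16Rik, at percentiles 33.7, 56.5 and 56.2. No Halo-Sox2a or control peak lay within 29104 bp of the nearest of these. Both Sox2 proteins without the control shared 1 low region inside the gene (chr18:11058979-11059295), at 6.43 and 13.5. Halo-Sox2a alone held 2 regions, 1 of them within 1 kb of the gene end and at percentile 19.5. The control alone held 1, inside Gata6os (chr18:11048302-11048573) and at percentile 1.25.

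Gata4, the related factor that follows Gata6, lies on chromosome 14 (63198914 to 63271712) and had 6 of its 9 regions in all 3 lists, the largest share of the 7 loci. The highest region in every list (chr14:63177601-63178619) lay inside the neighbouring gene Fdft1, a squalene synthase, at percentile 95.4 in Halo-Sox2, 97.3 in Halo-Sox2a and 98.5 in the control. Another lay at Neil2, a DNA glycosylase (chr14:63193264-63194269), at 71.4, 76.9 and 84.3. Inside Gata4 itself the highest region (chr14:63255348-63256399) was at 71.3, 76.5 and 82.0. All 3 of these ranked high in each list. A region inside the gene (chr14:63240500-63241001) was at percentile 40.0 in Halo-Sox2, 19.5 in Halo-Sox2a and 5.77 in the control. The remaining regions of all 3 lists were at 53.8, 68.1 and 56.6 (chr14:63164313-63165272, inside Fdft1) and at 36.9, 51.1 and 52.5 (chr14:63244503-63246617, inside Gata4). Single-list regions at Gata4 were 1 per list: a Halo-Sox2 peak at percentile 3.27, a Halo-Sox2a peak at 39.4 and a control peak (chr14:63251715-63252078) at 11.8.

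Sox17, a SoxF factor of the endoderm, lies on chromosome 1 (4490928 to 4497426). The region within 1 kb of its lower-coordinate end (chr1:4491737-4493770), 2034 bp wide and inside the gene, was at percentile 69.9 in Halo-Sox2, 95.4 in Halo-Sox2a and 72.6 in the control. The Halo-Sox2a list thus stood above the other 2, which lay close together. At the opposite end (chr1:4496579-4497572) the percentiles were 5.40, 19.2 and 12.9, low in all lists. A distal region 46438 bp from the gene (chr1:4543864-4544651) was held by both Sox2 proteins and not by the control, at 69.8 for Halo-Sox2 and 60.2 for Halo-Sox2a, and it had the best mean rank of that class at the 7 loci. On the lower-coordinate side, a Halo-Sox2-only region (chr1:4452879-4453951, 1073 bp) was at 64.7 and a Halo-Sox2a-only region (chr1:4447937-4448447) at 57.4, the highest of its class. These stood 4432 bp apart, and a control-only region at percentile 1.07 lay 2696 bp from the former.

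Sox7, the other SoxF factor, lies on chromosome 14 (63943706 to 63950732). Over the lower-coordinate end of the gene (chr14:63943098-63944180) the percentiles were 21.6 in Halo-Sox2, 52.1 in Halo-Sox2a and 32.6 in the control. In the region just outside that end (chr14:63942351-63943030) they were 25.7, 43.9 and 27.3. At both, Halo-Sox2a ranked highest. Both Sox2 lists without the control shared a region 2438 bp from the gene (chr14:63940664-63941268), at 13.8 for Halo-Sox2 and 15.4 for Halo-Sox2a, and another inside Pinx1 (chr14:63910589-63910999), at 45.5 and 43.5. The highest control-only region of the 7 loci lay 6786 bp from Sox7 (chr14:63936456-63936920), at percentile 56.3, above both control peaks at the gene itself. Halo-Sox2 alone held 2 low regions (0.548 and 9.75) and Halo-Sox2a alone held 1, at the Rp1l1 gene and percentile 43.5.

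Foxa2, a forkhead factor that opens chromatin in endoderm, lies on the minus strand of chromosome 2 (148042877 to 148046969) and had 7 of its 13 regions in all 3 lists. The merged region over its start at 148045948 (chr2:148045794-148046928), which holds the first Foxa2 sequence printed above, was at percentile 30.4 in Halo-Sox2, 40.7 in Halo-Sox2a and 79.6 in the control. The control list ranked it highest at the locus, and both Sox2 lists ranked it below their middle. Downstream of the gene and inside the non-coding gene 9030622O22Rik, a region at 11989 bp (chr2:148030064-148030888) was at 2.37, 19.2 and 58.0, and another at 2802 bp (chr2:148038772-148040075) at 18.0, 47.6 and 58.0. Another region inside the gene (chr2:148044037-148044866) was at 5.90, 30.2 and 18.0.

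Upstream of Foxa2 the order differed. A region 5897 bp upstream (chr2:148052866-148053908) was at percentile 77.5 in Halo-Sox2, 78.9 in Halo-Sox2a and 63.5 in the control, and was the highest Foxa2 region in the Halo-Sox2a list. One 1395 bp upstream (chr2:148048364-148049030) was at 51.3, 19.5 and 38.7, and one 34922 bp upstream (chr2:148081891-148083127) at 42.6, 77.3 and 42.7. The highest Foxa2 region in the Halo-Sox2 list (chr2:148060610-148061165), 13641 bp upstream, was at 83.9 there and 43.5 in Halo-Sox2a and was missing from the control, whose nearest peak was 6710 bp away. Halo-Sox2 alone held 4 further regions, led by one inside 9030622O22Rik (chr2:148004509-148004869) at percentile 68.9. Foxa2 thus had regions that ranked above the control and regions that ranked below it.

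Pdgfra, a receptor for platelet-derived growth factor that marks the lineage, lies on chromosome 5 (75151322 to 75198206) and had the fewest regions in all 3 lists for its number, 2 of 15. The region 2175 bp upstream of the gene (chr5:75148399-75149147) was at percentile 5.72 in Halo-Sox2, 14.2 in Halo-Sox2a and 43.6 in the control. Inside the gene (chr5:75156223-75157234) the percentiles were 60.1, 40.0 and 43.3. A region 7410 bp downstream (chr5:75205616-75206442) was at 93.9 in Halo-Sox2 and 34.1 in the control and was absent from Halo-Sox2a, whose nearest peak was 3567 bp away. It ranked 5425 in the Halo-Sox2 list, was the second-highest Halo-Sox2 member peak at any of the loci, and was the single region shared by Halo-Sox2 and the control alone. Just inside the gene, Halo-Sox2a and the control shared a low region (chr5:75153201-75153680), at 21.2 and 12.5.

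Halo-Sox2a alone held 6 Pdgfra regions, none overlapping the gene, with widths from 212 to 376 bp. Their percentiles were 56.0, 13.7, 8.13, 51.1, 43.5 and 8.13 along the chromosome. The first 4 lay inside the non-coding gene Gm19583, among them the highest ones at 56.0 (chr5:75111863-75112074) and 51.1 (chr5:75143160-75143460). Both Sox2 proteins without the control shared a region inside Pdgfra (chr5:75155612-75156010), at 48.3 in Halo-Sox2 and 58.5 in Halo-Sox2a, only 294 bp from a control peak. The highest Pdgfra region of the control list (chr5:75210009-75210341) was at 52.8 there, at 43.9 in Halo-Sox2a and missing from Halo-Sox2.

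Dab2, an endocytic adaptor of the visceral endoderm, lies on the plus strand of chromosome 15 (6299788 to 6440715). The region over its inner start (chr15:6386308-6387172) was at percentile 83.7 in Halo-Sox2, 86.3 in Halo-Sox2a and 75.8 in the control, high in every list. A second region inside the gene (chr15:6431824-6432319) was at 83.1, 75.3 and 56.3, again higher in both Sox2 lists. The highest-ranked Halo-Sox2-only region of the 7 loci lay 32413 bp downstream of Dab2 (chr15:6473128-6473685), inside the complement gene C9, at percentile 85.1, and no other list had a peak within 40809 bp. Upstream, a region shared by Halo-Sox2a and the control (chr15:6275731-6276576) was at 29.9 and 66.7, and Halo-Sox2 had no peak within 31003 bp of it.

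**Figure D3:**
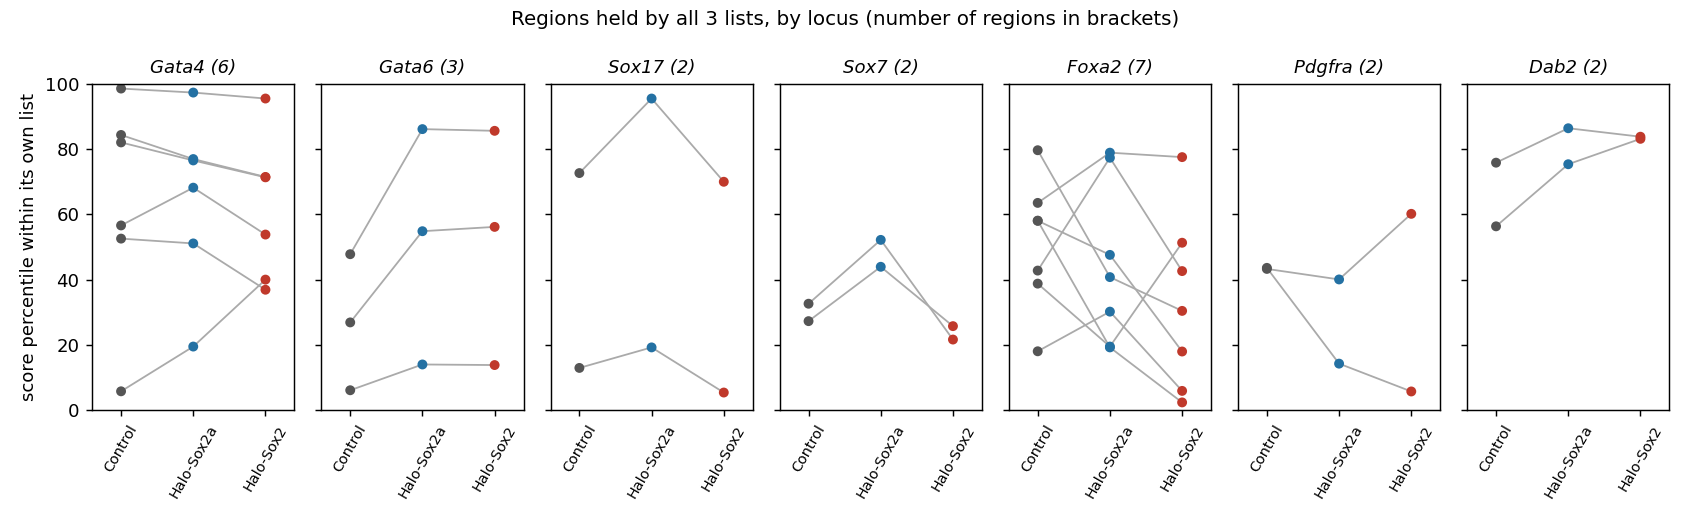
Score percentile within its own list (vertical axis, 0 to 100) of each of the 24 regions held by all 3 lists, by locus, with a line joining the values of a region in the control, Halo-Sox2a and Halo-Sox2 lists. The 3 Gata6 lines rise from the control to both Sox2 lists, while the 7 Foxa2 lines run in both directions. The lowest Gata6 line rises by 7.72 points in Halo-Sox2 and 7.89 points in Halo-Sox2a.

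Rank differences were then summed over the 24 regions of all 3 lists, with a difference of 25 percentile points as the call. Against the control, Halo-Sox2 was higher by that much in 4 regions, where 9.94% of the 41984 such regions in the genome were, and lower in 4, where 19.1% were. The 4 higher regions were the one inside Gata4 (34.2 points), the 2 at Gata6 (37.8 and 29.3) and the second Dab2 region (26.8). The 4 lower ones were the 3 Foxa2 regions at its start sites and downstream (-49.2, -55.6 and -40.0) and the region upstream of Pdgfra (-37.9). Halo-Sox2a was higher in 3 regions, where 12.0% of all were, and lower in 3, where 5.43% were. Those higher were the 2 at Gata6 (38.3 and 27.9) and the distal Foxa2 region (34.6), and those lower were 2 at Foxa2 (-38.9 and -38.8) and the one upstream of Pdgfra (-29.3). Both comparisons use the same control library, so they are not independent. With lists cut to equal size, the higher Halo-Sox2 calls inside Gata4 (20.8 points), at the Gata6 end (19.4) and at Dab2 (23.0) fell under the step, as did the Halo-Sox2a call at the Gata6 end (20.9). Of the 4 lower Halo-Sox2 regions, 3 then had no Halo-Sox2 peak left, namely both downstream of Foxa2 and the one upstream of Pdgfra. With ranks taken among regions of all 3 lists only, the region upstream of Pdgfra was lower by less than the step in both Sox2 lists (-20.0 in Halo-Sox2 and -20.2 in Halo-Sox2a).

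The median difference from the control over the 24 regions was -2.73 points for Halo-Sox2 and 9.22 points for Halo-Sox2a, against -5.28 and 1.72 points over all 41984. Halo-Sox2 against Halo-Sox2a was 25 points or more higher in 1 region, 31.8 points at the one 1395 bp upstream of Foxa2, where 4.45% of all were, and lower in 4, where 20.0% were. Its median difference was -7.00 points at the loci and -7.22 over all regions. The 4 lower regions were at Sox17 (-25.5), at Sox7 (-30.5) and at Foxa2 (-29.6 and -34.7).

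Over the whole genome, regions ranked low in the control had higher median percentiles in both Sox2 lists and regions ranked high had lower ones in Halo-Sox2, so members were also set beside all regions of the same control decile. For control percentiles from 40 to 50, the middle 80% of all regions ran from 13.1 to 80.8 in Halo-Sox2 and from 25.2 to 80.3 in Halo-Sox2a. The Gata6 region at 12064 bp lay above both ranges, and the region upstream of Pdgfra lay below both. The Foxa2 region at 11989 bp downstream was below both of its ranges (17.3 to 79.7 and 31.3 to 81.3). The Foxa2 start region was within its range for Halo-Sox2 (29.2 to 86.7) and below it for Halo-Sox2a (51.1 to 89.6). The second Dab2 region, at 83.1 in Halo-Sox2, was above its range there (17.3 to 79.7), and in Halo-Sox2a it was within (31.3 to 81.3). The remaining regions past the step lay within the range of their control decile. The region inside Gata4 was at 40.0 in Halo-Sox2, where the median of its decile was 35.4 and the range 6.38 to 86.1, and the Gata6 end region was within its range in both lists (9.22 to 82.1 and 14.8 to 74.5). The low region inside Gata6 was also within, at 13.8 and 14.0, below its decile medians of 35.4 in Halo-Sox2 and 36.6 in Halo-Sox2a. Some regions that did not pass the step also lay outside. In Halo-Sox2a, the Sox17 region at 95.4 was above its range (51.1 to 89.6). In Halo-Sox2, the Sox17 region at 5.40 and the one inside Foxa2 at 5.90 were below theirs (6.65 to 83.2). In all, 18 of 24 regions lay within the range in Halo-Sox2 and 19 in Halo-Sox2a. Such a range holds about 80% of all regions by construction, and both counts are near that share.

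**Figure D4:**
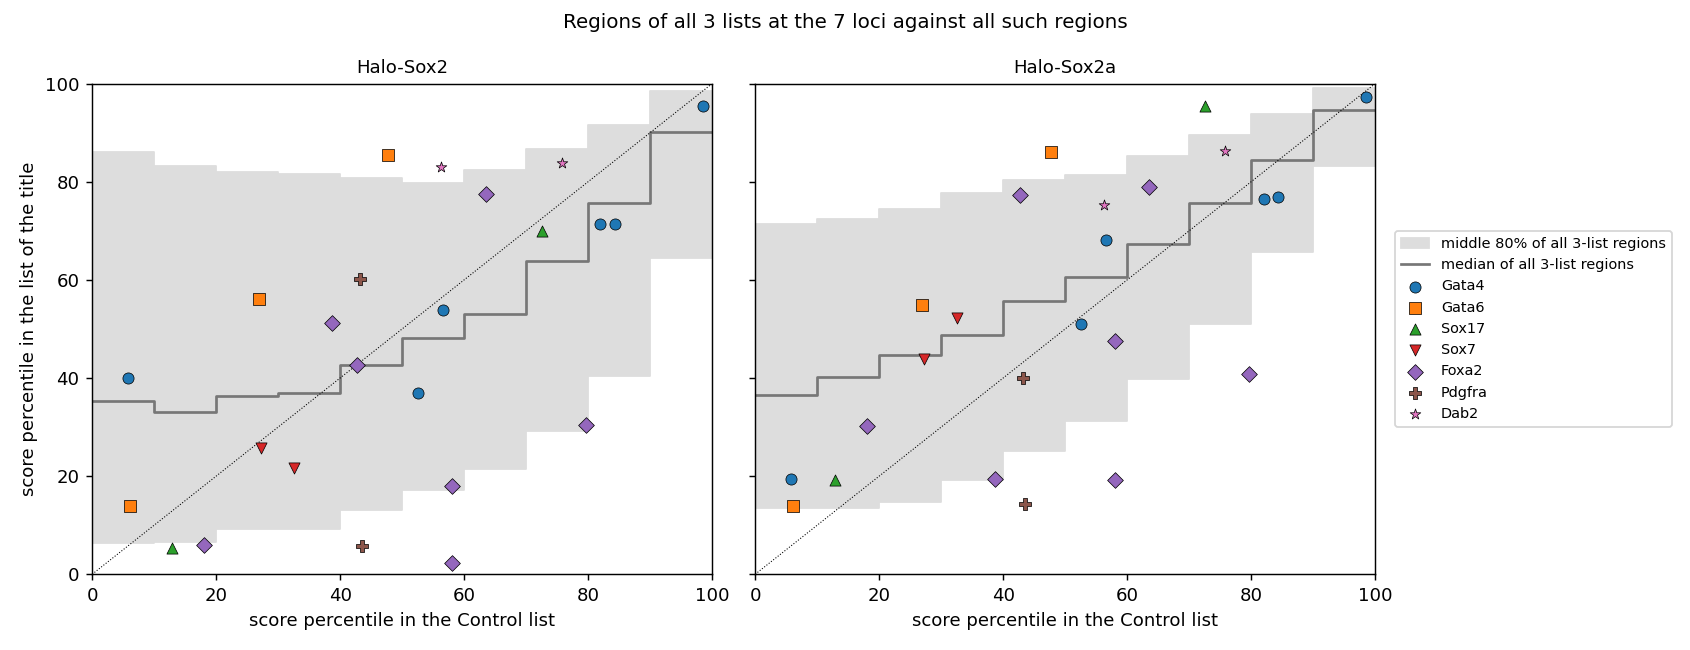
Score percentile in the Halo-Sox2 list (left) and the Halo-Sox2a list (right) against that in the control list for the 24 regions of all 3 lists at the 7 loci, with the median and middle 80% of all 41984 such regions in each control decile. Gata6 at control percentile 47.8 lies above the grey area in both panels. Pdgfra at 43.6 and the lower Foxa2 point at 58.0 lie below it in both, while the upper Foxa2 point at 58.0 lies within it.

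Other genes of the lineage were taken from a list of 18 with no member, including extracellular matrix genes (Lama1, Lamb1, Lamc1, Col4a1, Col4a2, Sparc), endocytic receptors (Cubn, Amn, Lrp2), later hepatic-type factors and secreted proteins (Hnf4a, Ttr, Apoa1, Afp), keratins (Krt8, Krt18), Fst, Nid2 and Serpinh1. A peak within 1 kb was present at 13 of 18 in Halo-Sox2 (72.2%), 14 in Halo-Sox2a (77.8%) and 13 in the control (72.2%). Over all protein-coding genes the shares were 65.3%, 66.2% and 65.8%. Of the 18 genes, 13 had start sites in the promoter table, and the others were judged at either gene end. Hnf4a, Cubn, Apoa1 and Afp had none in any list, Amn lacked one in Halo-Sox2 only and Ttr in the control only. Within 50 kb these genes had 290 regions, with a region near a pair of listed neighbours such as Krt8 and Krt18 counted for each. Of these, 32.1% were in every list, 24.8% in Halo-Sox2 only, 12.1% in Halo-Sox2a only, 10.7% in both Sox2 lists and 7.59% in the control only. Those shares stand near the 32.1%, 24.3%, 12.2%, 8.95% and 10.2% of all regions.

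For 5 signal genes of the choice between epiblast and primitive endoderm (Fgf4, Fgfr1, Fgfr2, Grb2 and Mapk3), all 5 had a peak within 1 kb in every list. The shares over all protein-coding genes were 65.3%, 66.2% and 65.8%. Of the 5, 3 were judged at starts, and Fgfr1 and Mapk3 at either gene end. Of their 90 regions, 43.3% were in every list (32.1% of all regions), 16.7% in Halo-Sox2 only (24.3%) and 11.1% in Halo-Sox2a only (12.2%). Both Sox2 lists without the control held 13.3% (8.95% of all) and the control only 6.67% (10.2%). Likeness to the 7 loci was measured as the Euclidean distance between splits of peaks over the 3 lists, which at the 7 loci pooled were 36.4% Halo-Sox2, 36.4% Halo-Sox2a and 27.3% control. The whole lists, of 88898, 83995 and 72638 peaks, are also uneven, with the control smallest. Likeness in this split therefore does not mark a trait particular to the loci. Among these 23 genes the nearest were Cubn (35.9%, 35.9% and 28.2% of 39 peaks), Lamc1 (38.2%, 35.3% and 26.5% of 68) and Krt8 (35.5%, 38.7% and 25.8% of 31).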

How the data were processed

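Chromatin accessibility was measured by ATAC-seq in 3 libraries, 1 each for Halo-Sox2, Halo-Sox2a and control cells, from about 50000 cells and 75-bp read pairs per the labels' protocols. Each deposited list gives chromosome, start, end, name and score per peak, and names carry a single library, so peaks were called per library. The score is the authors' whole number, deposited without a stated scale; its lowest value was 13 in every list. Per the submitters' processing notes, STAR, SAMtools, MACS2 3.0.0a7, deepTools 3.3.0, MACS3 and the build mm10 were used, with no role or order; the threshold is not given in the sources used here. The peak number moves with depth, which is unknown.

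Positions were made 1-based. Genes came from a RefSeq table of GRCm38.p6, the assembly behind mm10, which gives no exons, so no region was assigned to an exon or intron. Where the promoter table had an entry, it gave the strand and start. Overlapping peaks were merged into regions, and a region was a member if it held a member peak. Described regions are the highest of each locus and list, those at gene starts or ends, and the 3 best-ranked of each single-list class and of both Sox2 proteins without the control. Regions called by rank difference, and the other 3-list regions, were described in addition, after their values were seen. The members and lists were chosen with earlier results of these data known. A gene in each of the lists of other lineage genes and signal genes is not reported here, and their totals leave it out. With 1 library a group no test was run. Overlap, merging and ranking were checked on drawn intervals (27 of 27 checks met). Python 3.11.15, pandas 2.3.3 and scipy 1.17.1 were used.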

Additional observations from a re-analysis of the deposited data

How the results depend on the processing

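No paired analysis was possible because each group has 1 library and the labels carry no replicate numbers. Under the alternatives, 71 values stayed within the counting interval of a share or within 1.5 times a count, and 22 moved. Requiring an overlap of 50% of both peaks raised the shares without a control counterpart to 66.7% for Halo-Sox2 (59.5% of all peaks) and 58.3% for Halo-Sox2a (44.7%), and the control shares to 55.6% without Halo-Sox2 (50.4%) and 44.4% without Halo-Sox2a (36.0%). With lists of equal size, the control share without Halo-Sox2 was 44.4%, against 45.1% of all peaks, Halo-Sox2 alone held 10 of 60 regions (16.7%, against 21.4% of all), and 4 of 18 regions differed by 25 points in Halo-Sox2, where 34.6% of all did. Among peaks above percentile 50, the share of Halo-Sox2 without the control was 60.0% (50.6% of all), the control shares were 46.7% without Halo-Sox2 (38.8%) and 40.0% without Halo-Sox2a (19.8%), and of 33 regions 9 were of Halo-Sox2 alone (27.3%, against 25.5% of all), 3 of both Sox2 proteins (9.09%, against 8.50%) and 8 of all 3 lists (24.2%, against 31.8%). Within 20 kb of the genes, 32.4% of Halo-Sox2 peaks lacked a control peak (49.3% of all) and Halo-Sox2 alone held 7 of 46 regions (15.2%, against 24.3%). Within 100 kb, Halo-Sox2 alone held 26 of 108 (24.1%), both Sox2 proteins 10 (9.26%, against 8.95%), and 13 of 35 differed in Halo-Sox2 (29.0% of all). A step of 15 points gave 12 of 24 regions for Halo-Sox2a (34.3% of all), and a step of 35 points gave 5 for Halo-Sox2 (17.1%) and 3 for Halo-Sox2a (8.59%). Without Pdgfra, an alternative chosen after seeing the data, 25.0% of Halo-Sox2a peaks lacked a Halo-Sox2 peak (35.4% of all). The cause was not tested.

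Ranks from lists of equal size kept 1 of the 4 higher and 1 of the 4 lower Halo-Sox2 calls, since 3 of the lower regions then had no Halo-Sox2 peak, and 2 of 3 higher and 3 of 3 lower Halo-Sox2a calls. Ranks among the regions of all 3 lists only, also chosen after seeing the data, kept 4 and 3 of the Halo-Sox2 calls and 2 and 2 of the Halo-Sox2a calls. The Gata6 region at 12064 bp and the Foxa2 start region kept their calls in both lists under both kinds of rank. The region over the Gata6 end was at 20.9 and 16.7 points in Halo-Sox2a. With lists of equal size, 2 regions newly passed the step as lower in Halo-Sox2, at Gata4 (-29.8) and Sox7 (-28.5), and 1 in Halo-Sox2a, at Foxa2 (-31.9). With ranks among regions of all 3 lists, 1 newly passed as higher in Halo-Sox2, inside Pdgfra (25.8), and 1 in Halo-Sox2a, at Sox17 (34.8).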

Other observations

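Tied scores limit the ranks of weak members. The Halo-Sox2a peaks at percentile 43.5, found at Sox7, Dab2, Foxa2 and Pdgfra, all had a score of 82, shared by 1898 peaks of that list, and those at 8.13, at Gata6 and Pdgfra, had a score of 25, shared by 3064 peaks.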
